A study of Mus musculus with 6 samples.

Results

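The extracellular matrix genes of the mouse pancreas were followed 14 days after deletion of Ptf1a, the transcription factor that keeps acinar cells differentiated. Members were taken by a rule on gene names, and members and classes were chosen with earlier results of these data known. The rule takes symbols of collagen and laminin chains, fibulins, fibrillins, nidogens, emilins, latent TGF-beta binding proteins, microfibril proteins, elastin, perlecan and biglycan. It also takes those of the lysyl oxidases, prolyl and lysyl hydroxylases and the collagen chaperone. It found 56 of the 10245 genes in the table. Of these, 29 were placed in an interstitial set (8 fibrillar collagens, 8 other interstitial collagens, 12 elastic fibre and microfibril genes and Bgn), 17 in a basement membrane set, and 7 among the assembly enzymes and the chaperone. The other 3, Col4a3bp, Mfap1a and Mfap3, share a name with matrix genes but are not counted as matrix genes here. All 56 passed the filter on low values.

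Each library was made from whole pancreas RNA of 1 mouse. The 3 controls were Ptf1a(CreER/+) and the 3 Ptf1a cKO mice Ptf1a(CreER/fl). All 6 mice carried 1 Ptf1a allele with CreER and received 3 doses of tamoxifen by gavage, 0.25 mg per g on days 0, 1 and 2. Because CreER was driven from the Ptf1a locus, recombination took place in acinar cells and not by design in the fibroblasts, stellate cells and endothelial cells of the tissue. Control mice were 4 months old and Ptf1a cKO mice 5 months old, so that age and genotype cannot be told apart. Control replicate 1 and Ptf1a cKO replicate 2 were male and the other 4 mice female.

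The matrix between cells is built mostly by fibroblasts and, in the pancreas, by stellate cells, whose activation lays down fibrillar collagens in pancreatitis and around tumors. Collagen chains are hydroxylated and folded into triple helices in the endoplasmic reticulum with the help of prolyl and lysyl hydroxylases and the chaperone HSP47, trimmed after secretion and cross-linked by lysyl oxidases. Basement membranes are thin sheets of laminin and type IV collagen joined by nidogen and perlecan, on which acini, ducts and vessels rest, and both epithelial and stromal cells make their parts.

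Promoter windows are shown for 5 members that carry the comparison between interstitial and basement membrane genes. Col1a2 and Col3a1 encode chains of the main fibrils, Col4a1 and Col4a2 the chains of the most widespread type IV collagen, and Lamb3 the laminin chain that rose. Each window is the RefSeq sequence in GRCm38.p6 from 250 bases before to 50 bases after a start site, read 5′ to 3′ on the strand of the gene. The start site nearest the 5′ end of the gene model was taken. For Col1a2 and Lamb3 it lay inside the gene model and not at its end. Capitals mark the CCAAT box (spelled CCAAT), the GC box (spelled GGGCGG) and the TATA box (spelled TATAAA), each searched on both strands. In these 5 windows no marked motif overlaps another.
Col1a2, chr6:4505368-4505667, plus strand: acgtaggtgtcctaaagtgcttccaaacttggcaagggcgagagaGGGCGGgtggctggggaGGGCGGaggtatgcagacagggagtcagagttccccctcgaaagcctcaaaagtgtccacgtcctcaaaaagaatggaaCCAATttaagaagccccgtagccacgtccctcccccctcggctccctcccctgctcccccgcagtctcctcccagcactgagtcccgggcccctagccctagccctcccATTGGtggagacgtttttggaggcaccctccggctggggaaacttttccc
Col3a1, chr1:45311288-45311587, plus strand: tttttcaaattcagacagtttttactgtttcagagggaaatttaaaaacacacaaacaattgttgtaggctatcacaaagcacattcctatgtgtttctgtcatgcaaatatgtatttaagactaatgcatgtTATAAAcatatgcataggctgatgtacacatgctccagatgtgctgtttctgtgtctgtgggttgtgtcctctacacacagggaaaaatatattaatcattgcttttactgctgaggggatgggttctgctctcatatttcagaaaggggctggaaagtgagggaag
Col4a1, chr8:11312777-11313076, minus strand: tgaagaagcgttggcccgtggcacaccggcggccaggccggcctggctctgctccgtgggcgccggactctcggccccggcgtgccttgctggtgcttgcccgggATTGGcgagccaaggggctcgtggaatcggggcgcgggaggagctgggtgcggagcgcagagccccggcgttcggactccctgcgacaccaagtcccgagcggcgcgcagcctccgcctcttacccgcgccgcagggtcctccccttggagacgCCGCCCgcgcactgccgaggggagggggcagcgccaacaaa
Col4a2, chr8:11312555-11312854, plus strand: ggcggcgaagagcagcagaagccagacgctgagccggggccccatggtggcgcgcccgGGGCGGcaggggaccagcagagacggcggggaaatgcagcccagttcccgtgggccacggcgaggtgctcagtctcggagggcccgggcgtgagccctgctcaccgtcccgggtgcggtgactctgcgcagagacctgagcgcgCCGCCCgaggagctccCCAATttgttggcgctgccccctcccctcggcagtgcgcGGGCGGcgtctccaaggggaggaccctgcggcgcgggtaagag
Lamb3, chr1:193301744-193302043, plus strand: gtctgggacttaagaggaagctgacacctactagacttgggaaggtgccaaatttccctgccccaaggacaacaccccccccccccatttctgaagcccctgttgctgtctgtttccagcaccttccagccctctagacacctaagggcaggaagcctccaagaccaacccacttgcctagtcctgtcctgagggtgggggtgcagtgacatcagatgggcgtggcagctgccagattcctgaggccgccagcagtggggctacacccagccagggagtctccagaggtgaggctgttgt

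Col4a1 and Col4a2 lie head to head. Their start sites are 21 bases apart, their windows share 78 bases, and their exons overlap by 22 bases on opposite strands. The Col1a2 window held 2 CCAAT and 2 GC boxes, whereas the window of Col3a1, its partner in fibrils, held neither and a single TATAAA. In the Lamb3 window none of these letters was found. A window was at hand for 42 of the 56 members. CCAAT was present in 8 of 23 interstitial windows (34.8%) and in 6 of 12 basement membrane windows (50.0%), against 37.4% of all 32851 windows. GGGCGG was present in 14 of 23 (60.9%) and in 9 of 12, against 35.7% of all. TATAAA was present in 2 of 23 (8.7%) and 0 of 12, against 13.6% of all. These counts describe letters in the windows and not binding sites.

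All levels are read counts after the authors' normalization between libraries. Ptf1a itself was at 566, 601 and 652 normalized counts in control libraries and at 19.8, 70.1 and 10.2 in Ptf1a cKO libraries. Of 10 markers of acinar cells, Ptf1a among them, 8 were lower in Ptf1a cKO, where 16.8% of all genes were lower. The total over all genes was 0.36 times as high in Ptf1a cKO as in control, while the median gene was nearly level, with a median log2 fold change of 0.04. Log2 fold changes were taken after adding a pseudocount of 3.41 normalized counts, so that those of weakly expressed genes are too small, and are relative to this scale. limma was run over all 10245 genes with Benjamini-Hochberg adjustment, and genes with an adjusted p-value under 0.05 are called higher or lower. By this rule 33.9% of all genes were called, 50.4% of them higher. The split was 98.7% higher when each library was given the same total and 31.0% higher when digestive enzymes were left out of that total.

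Interstitial matrix genes rose in Ptf1a cKO pancreata. Of the 29 interstitial genes, 20 were higher and 0 lower, where 17.1% of all genes were higher and 16.8% lower. Their median log2 fold change was 1.04. Without control replicate 1 the count was 13, where 12.0% of all genes were higher, and with digestive enzymes left out of a common total it was 16, where 10.6% of all genes were higher. Of the 17 basement membrane genes, 1 was higher and 0 lower, with a median of 0.45, and of the 7 assembly enzymes and chaperone, 2 were higher and 0 lower, with a median of 0.18. In all 20 interstitial genes that were called, each Ptf1a cKO value lay above each control value, a separation found upward in 26.5% of all genes, downward in 24.3% and in either direction in 50.8%. At least a 2-fold rise on the log2 scale together with a call was found in 14 of the 56 members and in 6.35% of all genes. In tissue RNA, more cells of a type and more RNA per cell cannot be told apart. The genes Col6a6, Col11a2, Mfap4 and Lamc3 reached 27.6 normalized counts, the minimum that every listed gene reaches in at least 1 library, only in Ptf1a cKO libraries, and Lama3 reached it only in control libraries. Without these genes 19 of 26 interstitial and 1 of 15 basement membrane genes were higher.

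**Figure D1:**
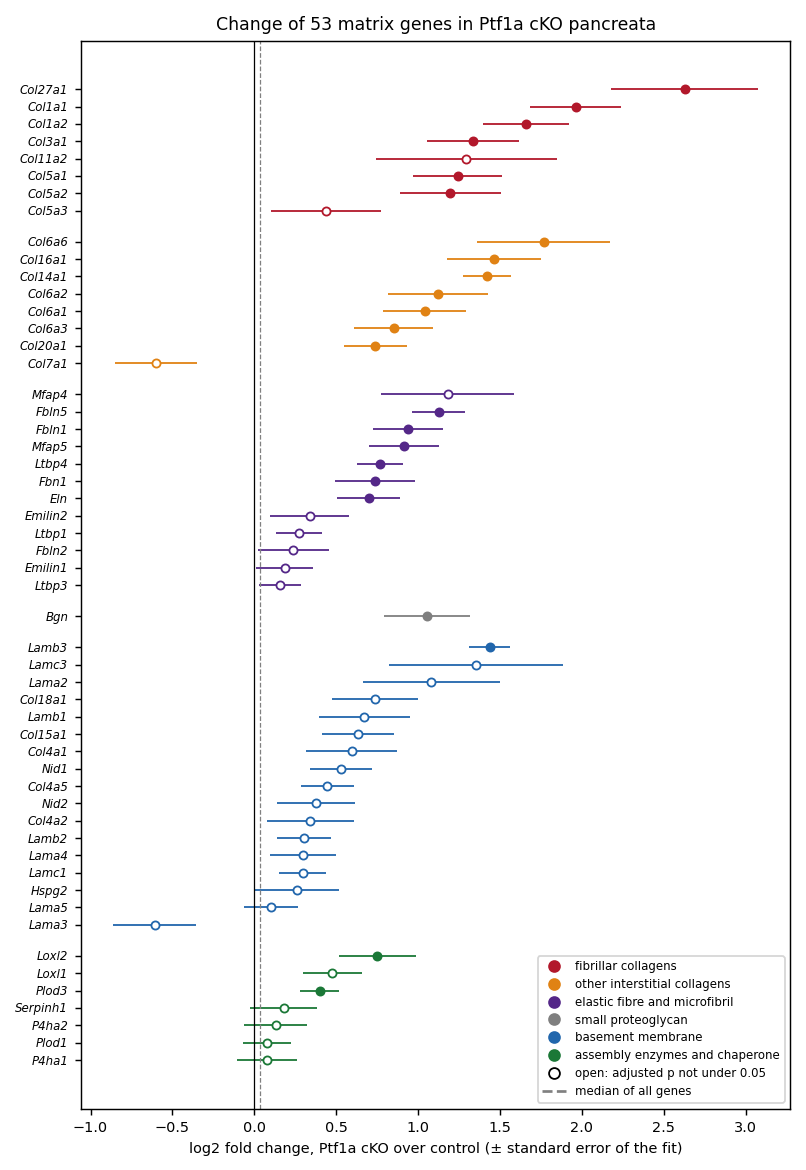
Log2 fold change (Ptf1a cKO over control, x axis) of the 53 matrix genes, grouped and colored by class, with bars for the standard error of the limma fit on 3 mice per group. Filled points have an adjusted p-value under 0.05. Fibrillar and other interstitial collagens lie mostly above 1 on the log2 scale, with Col7a1 on the other side of 0. Basement membrane genes have a median of 0.45 with Lamb3 as the filled point.

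Among fibrillar collagens, 6 of 8 genes were higher and the median log2 fold change was 1.31. Type I collagen, the main protein of scar tissue, is made of the chains of Col1a1 and Col1a2. Col1a1 (chromosome 11 of GRCm38, 94936224 to 94953042) was at 229, 216 and 284 normalized counts in control libraries and at 584, 1419 and 1033 in Ptf1a cKO libraries. The means were 243 ± 36.2 and 1012 ± 418 (SD, n = 3 each), which is 1.96 on the log2 scale with a standard error of 0.28 (adjusted p = 0.00102). Col1a2 was at 430.5, 343 and 405 in control and at 795, 1877 and 1284 in Ptf1a cKO (log2 fold change 1.66, adjusted p = 0.00183). Both genes were lowest in replicate 1 and highest in replicate 2 among the Ptf1a cKO libraries, and in neither did the groups overlap. Col3a1, whose type III collagen forms fibrils together with type I, was the most abundant of the members in each Ptf1a cKO library. It was at 1044, 831 and 877 in control and at 1509.7, 3756 and 2169 in Ptf1a cKO, a 2.70-fold difference of the means (log2 fold change 1.33, adjusted p = 0.00685).

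Type V collagen sits in the core of fibrils and sets their diameter. Its chain Col5a1 was at 92.7, 100.05 and 97.7 in control and at 154, 385 and 214 in Ptf1a cKO (log2 fold change 1.24, adjusted p = 0.00838). Col5a2 was at 93.7, 66.9 and 122 in control and at 139.6, 343 and 205 in Ptf1a cKO (1.20, adjusted p = 0.017). The pattern over the 3 Ptf1a cKO mice was that of type I collagen in both genes. The third chain, Col5a3, was at 91.7, 279 and 118 in Ptf1a cKO against 119, 98.0 and 102 in control, so that replicate 2 alone stood out and the test was not passed (0.44, adjusted p = 0.34).

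Col27a1 encodes a fibrillar collagen best known from cartilage and had the largest rise of all members. It was at 31.4, 36.0 and 37.7 normalized counts in control libraries and at 264, 99.5 and 481 in Ptf1a cKO libraries. Its log2 fold change was 2.63 with a standard error of 0.45 (adjusted p = 0.00251). Here replicate 2 was the lowest of the Ptf1a cKO libraries, the reverse of type I, III and V collagen. Col11a2, a cartilage collagen chain at low level, ordered the Ptf1a cKO libraries in the same way (28.7, 15.0 and 57.0, against 19.4, 10.7 and 4.12 in control) but did not pass the test (adjusted p = 0.0993).

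**Figure D2:**
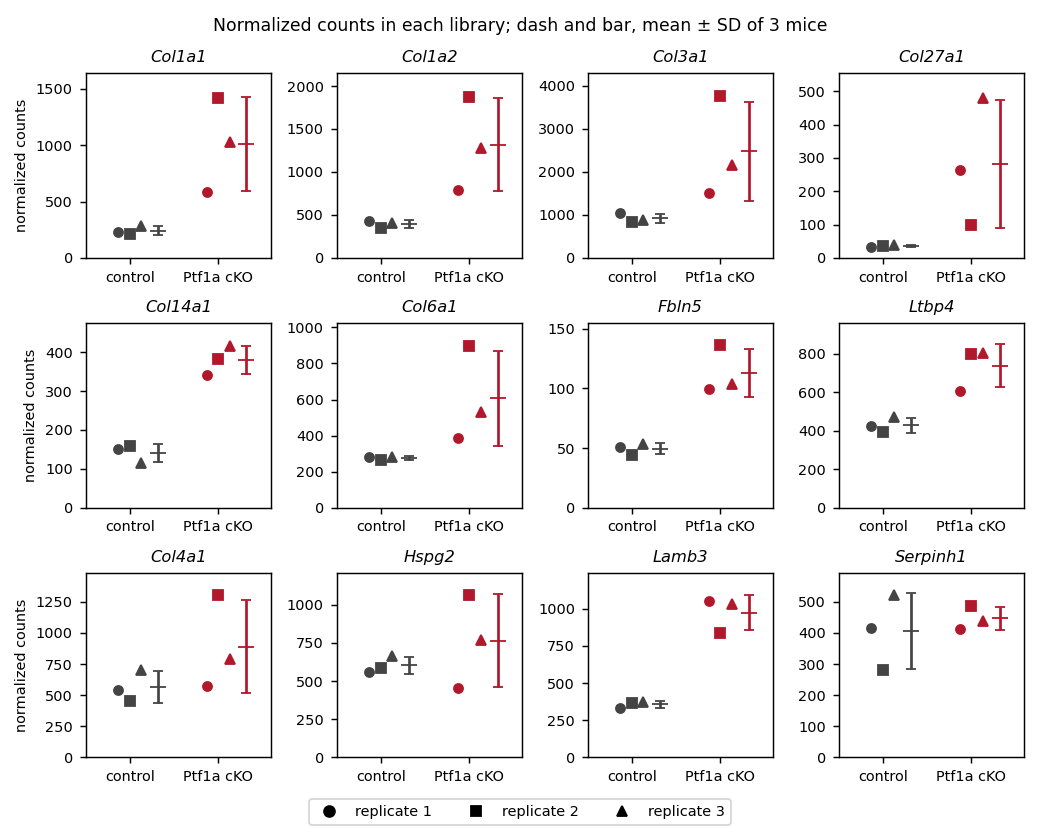
Normalized counts (y axis, from 0) of 12 matrix genes in each library, with circles, squares and triangles for replicates 1, 2 and 3, and the mean ± SD of 3 mice beside them. Col1a1, Col1a2, Col3a1 and Col6a1 are highest in Ptf1a cKO replicate 2. Col27a1 is lowest there among the Ptf1a cKO libraries, at 99.5. Lamb3 is at 838 or more in all 3, and Serpinh1 overlaps between the groups.

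Of the other interstitial collagens, 7 of 8 were higher, and for each of the 7 all Ptf1a cKO libraries lay above all control libraries. Col14a1 encodes a collagen that decorates the surface of fibrils. It was at 150.4, 158 and 114 in control and at 341, 383 and 415 in Ptf1a cKO, with means of 141 ± 23.6 and 380 ± 37.0 (SD, n = 3 each). Its adjusted p-value, 2.52e-04 at a log2 fold change of 1.42, was the smallest of the interstitial genes. The 3 Ptf1a cKO values lay closer together than those of type I collagen. Col16a1, another fibril-associated collagen, was at 43.5, 25.9 and 19.97 in control and at 62.2, 91.7 and 105 in Ptf1a cKO (1.47, adjusted p = 0.00475). Col20a1, of the same family, was at 33.8, 44.1 and 40.3 in control and at 59.8, 61.1 and 84.4 in Ptf1a cKO (0.74, adjusted p = 0.0171).

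Type VI collagen forms beaded filaments around cells, and its 4 members were all called higher, Col6a2 and Col6a3 less firmly. Col6a1 was at 279, 266 and 283 in control and at 387, 899.5 and 533 in Ptf1a cKO (log2 fold change 1.04, adjusted p = 0.0134). Col6a2 was at 244, 221 and 268 in control and at 331, 928 and 494 in Ptf1a cKO (1.12, adjusted p = 0.0211). Both again peaked in replicate 2. Col6a3 averaged 147 and 282 normalized counts in control and Ptf1a cKO (0.85, adjusted p = 0.0249). Col6a6 was low, at 7.13, 13.8 and 9.75 in control and at 23.8, 45.4 and 67.2 in Ptf1a cKO (1.77, adjusted p = 0.0102). With single libraries left out, Col6a2 was called in 3 of 6 fits and Col6a3 in 2 of 6, and with digestive enzymes left out of the total neither passed (adjusted p = 0.0544 and 0.0833 by limma).

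Col7a1 was the exception. Its collagen forms the anchoring fibrils below epithelia such as the epidermis. It was at 2368, 2066 and 1260 in control and at 1368, 1406 and 916 in Ptf1a cKO, so that the groups overlapped (log2 fold change -0.60, adjusted p = 0.0906). Per kilobase of exon, Col7a1 stood highest of the 56 members in control, at 184.5 normalized counts, ahead of Serpinh1 at 166 and Col3a1 at 93.5. In Ptf1a cKO the order was Col3a1 at 252, Serpinh1 at 183, Col1a1 at 154, Lamb3 at 147 and Col6a1 at 138, with Col7a1 at 119.6. These levels rest on merged exons of a GRCm38 annotation and not on the gene models the authors counted on.

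Of 12 elastic fibre and microfibril genes, 6 were higher, with a median log2 fold change of 0.72. Fbln5 encodes fibulin-5, which places elastin on microfibrils. It was at 50.9, 44.4 and 53.2 in control and at 99.3, 136 and 103 in Ptf1a cKO (log2 fold change 1.13, standard error 0.16, adjusted p = 0.00109). Ltbp4, a fibulin-5 partner that also binds latent TGF-beta, was at 424, 392.5 and 470.3 in control and at 608, 799.9 and 803 in Ptf1a cKO (0.77, adjusted p = 0.00351). In both genes the lowest Ptf1a cKO value was above the highest control value. Fbln1 was at 42.8, 40.8 and 46.0 in control and at 60.2, 103 and 102 in Ptf1a cKO (0.94, adjusted p = 0.00953). Mfap5, a glycoprotein of microfibrils, was at 26.8, 33.7 and 39.9 in control and at 55.8, 82.8 and 60.6 in Ptf1a cKO (0.91, adjusted p = 0.0113).

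Elastin itself, Eln, was at 73.1, 80.3 and 85.1 in control and at 98.1, 133 and 171 in Ptf1a cKO (0.70, adjusted p = 0.0211). Its call was kept in 3 of 6 fits with single libraries left out and lost with digestive enzymes left out of the total (adjusted p = 0.0754). Fbn1, whose fibrillin-1 is the backbone of microfibrils, was at 285, 252 and 348 in control and at 364, 744 and 433 in Ptf1a cKO (0.74, adjusted p = 0.0433). The gap between the groups was narrow for Fbn1, which passed the threshold in 1 of 6 fits with single libraries left out, and 20.3% of its exonic bases are shared with an annotated gene on the opposite strand. Mfap4 had the largest rise in log2 fold change of this class (1.18) and just missed the threshold (adjusted p = 0.0501), with values of 13.9, 10.7 and 24.6 in control and 36.9, 24.5 and 67.8 in Ptf1a cKO. Ltbp3 was the most abundant of the class and overlapped, at 948, 749 and 803 in control and 955, 979.6 and 849.6 in Ptf1a cKO. The log2 fold changes of Emilin1, Emilin2, Fbln2, Ltbp1 and Ltbp3 lay between 0.16 and 0.34 and none passed the test.

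Bgn encodes biglycan, a small proteoglycan that binds collagen fibrils. It was at 258, 195 and 356 in control and at 375, 664 and 658 in Ptf1a cKO (log2 fold change 1.05, adjusted p = 0.0145). The call was lost without control replicate 1 (adjusted p = 0.0504) and without control replicate 2 (adjusted p = 0.0559).

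The basement membrane set was led by Lamb3, the beta chain of laminin-332, a laminin of epithelia. Lamb3 was at 329, 368 and 371 normalized counts in control and at 1051, 838 and 1028 in Ptf1a cKO. The means were 356 ± 23.3 and 972 ± 117 (SD, n = 3 each), the log2 fold change 1.44 with a standard error of 0.13, and the adjusted p-value of 1.13e-04 the smallest of all 56 members. The alpha chain of the same laminin, Lama3, went the other way, at 37.0, 32.7 and 42.5 in control and at 17.5, 25.9 and 27.5 in Ptf1a cKO. The groups did not overlap for Lama3, but its log2 fold change of -0.61 did not pass the test (standard error 0.25, adjusted p = 0.0921).

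The remaining 15 basement membrane genes had positive log2 fold changes between 0.10 (Lama5) and 1.35 (Lamc3), and none passed the test. Those of Lama5 and Hspg2 were near 0 or below it under another scaling or without Ptf1a cKO replicate 2. Col4a1, the most abundant of them in Ptf1a cKO, was at 539, 451 and 704 in control and at 573, 1305 and 794 in Ptf1a cKO (0.60, adjusted p = 0.125). Hspg2, which encodes the heparan sulfate proteoglycan perlecan, was at 558, 587 and 665 in control and at 456, 1065 and 768 in Ptf1a cKO (0.26, adjusted p = 0.467). In both, replicate 1 lay within or below the control range and replicate 2 far above it. Lamc3 was at 19.6, 13.02 and 20.3 in control and at 23.6, 136 and 36.2 in Ptf1a cKO, so its change rested mostly on replicate 2. Col15a1, Col18a1, Nid1 and Col4a5 came close to the threshold, with adjusted p-values from 0.0527 to 0.0619.

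The small number of basement membrane calls depended on Ptf1a cKO replicate 1 and on the scaling. Without that library 9 of the 17 genes were higher, where 12.9% of all genes were higher, and the median log2 fold change was 0.61. Without Ptf1a cKO replicate 2 it was 0.28, and 1 gene was higher, where 18.1% of all genes were higher. With the same 75th percentile in each library 5 of the 17 and 19.4% of all genes were higher, and with the same total 16 of the 17 and 93.6% of all genes. For the interstitial genes the counts were 20 without Ptf1a cKO replicate 1, 21 without replicate 2 and 16 without replicate 3, and 13, 14 and 18 without control replicates 1, 2 and 3. Of the 20 genes called, 13 kept their call in each of these 6 fits. The other 7, Bgn, Col5a2, Col20a1, Col6a2, Col6a3, Eln and Fbn1, all lost it without control replicate 1. Missing the threshold therefore does not show that the basement membrane genes were level.

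As a class, the assembly genes moved less than the fibrillar collagens, with median log2 fold changes of 0.18 and 1.31. Plod3, a lysyl hydroxylase and glycosyltransferase of collagen, was at 251, 203 and 228 in control and at 281, 308 and 312 in Ptf1a cKO (log2 fold change 0.40, adjusted p = 0.0299), but 16.1% of its exonic bases overlap Znhit1 on the opposite strand. Loxl2, a lysyl oxidase that cross-links type IV collagen, was at 58.0, 58.3 and 72.0 in control and at 75.2, 154 and 107 in Ptf1a cKO (0.75, adjusted p = 0.0351). These calls were kept in 2 and 1 of 6 fits with a library left out. Serpinh1, the collagen chaperone HSP47, was at 417, 280.1 and 521 in control and at 414, 488 and 439 in Ptf1a cKO, with the groups overlapping (0.18, standard error 0.20, adjusted p = 0.523). The prolyl hydroxylase subunits P4ha1 and P4ha2 and the lysyl hydroxylase Plod1 had log2 fold changes of 0.08, 0.13 and 0.08, and Loxl1 had 0.48 (adjusted p = 0.0703). Of the 3 members not counted as matrix genes here, Mfap3 was higher (0.65, adjusted p = 0.00954). Col4a3bp, a ceramide transporter, and Mfap1a, a splicing protein, had changes of -0.17 and -0.06.

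Ratios of 2 genes within a library do not depend on how libraries were scaled. The ratio of Col1a1 to Col4a1 was 0.426, 0.478 and 0.404 in control libraries and 1.02, 1.09 and 1.30 in Ptf1a cKO libraries. Its means were 0.436 ± 0.038 and 1.14 ± 0.15 (SD, n = 3 each), so that interstitial type I collagen rose 2.61-fold relative to type IV collagen of basement membranes. Replicate 2, in which both genes peaked, lay between the other Ptf1a cKO libraries. The ratio of Col1a1 to its chaperone Serpinh1 was 0.550, 0.770 and 0.545 in control and 1.41, 2.91 and 2.35 in Ptf1a cKO. Lamb3 to Lama3 went from 8.88, 11.2 and 8.72 to 59.95, 32.4 and 37.4. Its denominator Lama3 reached the minimum of 27.6 normalized counts only in control libraries, and Lama3 was not called (limma, adjusted p = 0.0921). In these 3 ratios the groups were apart, with an exact permutation p of 0.10 (two-sided), the smallest that 3 against 3 mice allow, and 0.183 after adjustment over the 11 pairs compared. The pairs were chosen after the values had been seen.

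Lamb3 and Lama3 are themselves partner chains. Ratios of the other partner genes shifted less than the 3 ratios above. Col6a1 to Col6a2 was 1.14, 1.20 and 1.06 in control and 1.17, 0.970 and 1.08 in Ptf1a cKO, which overlapped, and Col5a1 to Col5a2 averaged 1.095 ± 0.36 and 1.09 ± 0.041 (SD, n = 3 each). Col4a1 to Col4a2, the pair with the shared promoter, was 1.36, 1.28 and 1.32 in control and 1.55, 1.61 and 1.55 in Ptf1a cKO, a small shift of 1.19-fold with the groups apart. Col1a1 to Col1a2 shifted from 0.533, 0.629 and 0.702 to 0.735, 0.756 and 0.804. Col3a1 to Col1a1 fell from 4.55, 3.86 and 3.09 to 2.58, 2.65 and 2.10. Each of these 3 shifts had an exact permutation p of 0.10, with 0.183 after adjustment. Lamb1 to Lamc1, a pair of chains found together in many laminins, overlapped between the groups, with means of 0.484 and 0.640 (exact permutation p = 0.40).

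**Figure D3:**
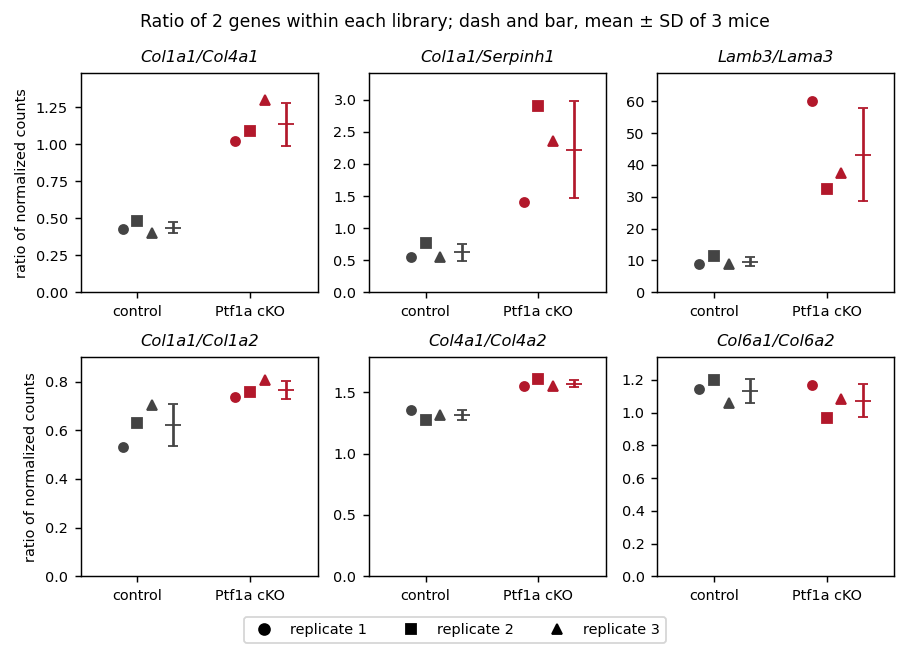
Ratio of normalized counts of 2 genes within each library (y axis, from 0), with circles, squares and triangles for replicates 1, 2 and 3 and the mean ± SD of 3 mice per group. Col1a1 to Col4a1 is at or under 0.478 in the control and at or over 1.02 in the Ptf1a cKO libraries. Col6a1 to Col6a2 overlaps.

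The 3 Ptf1a cKO mice did not carry equal amounts of matrix transcripts. Relative to the control mean, the median interstitial gene was at 0.50, 1.33 and 1.04 on the log2 scale in Ptf1a cKO replicates 1, 2 and 3, the median basement membrane gene at 0.02, 0.92 and 0.48, and the median assembly gene at 0.18, 0.26 and 0.11. Replicate 2 was the highest of the 3 in 37 of the 53 matrix genes (69.8%), against 34.6% of all genes. Replicate 1 was the lowest in 43 of the 53, against 3098 of all 10245 genes. For 11 of the 17 basement membrane genes replicate 1 lay within the control range, against 3 of the 29 interstitial genes and 2680 of all 10245 genes. Replicate 2 was also the library with the most Ptf1a left and the male of its group. With sex as a covariate 21 interstitial and 4 basement membrane genes were higher, and 16.5% of all genes. The part of the remaining Ptf1a was not tested.

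**Figure D4:**
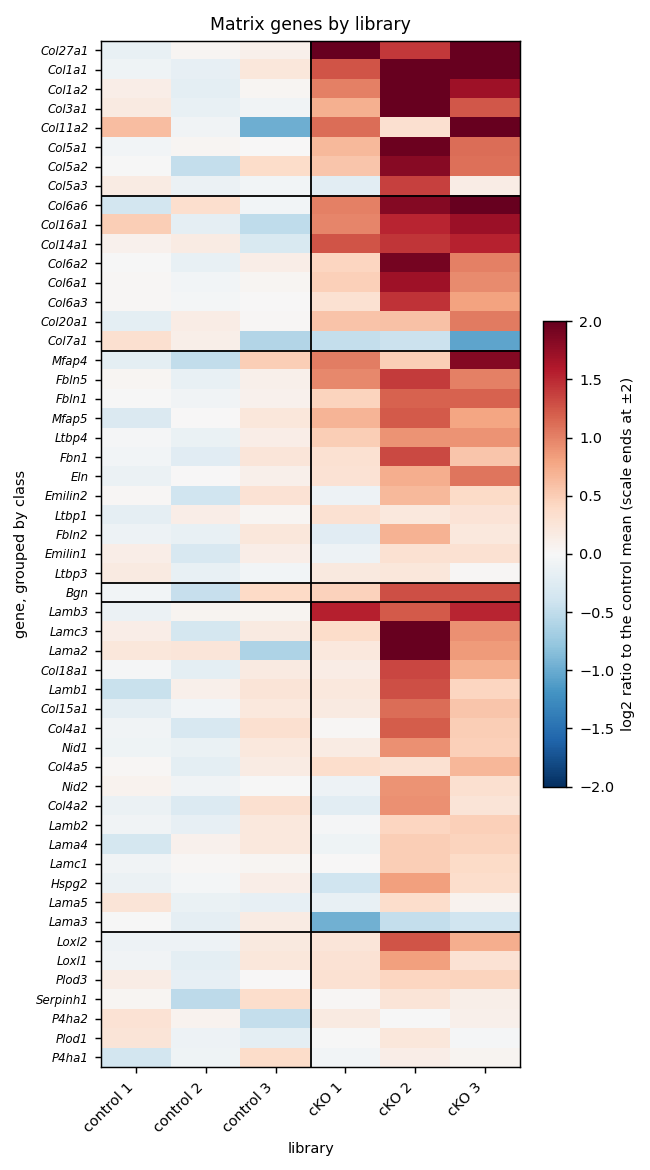
Log2 ratio of each value to the control mean of its gene (color, cut at 2 in either direction) for 53 matrix genes (rows, grouped by class with lines between classes) in 6 libraries (columns). Most interstitial genes are red in all 3 Ptf1a cKO libraries, and most basement membrane genes are red in replicate 2, paler in replicate 3 and close to white in replicate 1.

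Markers of fibroblasts and stellate cells moved as well. Of 11 such markers, 9 were higher and 0 lower, where 17.1% of all genes were higher and 16.8% lower. Their summed level ran from 1024 to 1369 normalized counts in control libraries and was 1920.0, 2363 and 2442 in Ptf1a cKO libraries. Pdgfra, a receptor that marks fibroblasts, was at 83.2, 83.7 and 56.4 in control and at 141, 180.1 and 155.5 in Ptf1a cKO, whereas Pdgfrb, the related receptor of stellate cells and pericytes, overlapped between the groups (log2 fold change -0.10, adjusted p = 0.755). The ratio of Col1a1 to Pdgfra was 2.76, 2.58 and 5.04 in control and 4.13, 7.88 and 6.64 in Ptf1a cKO and overlapped (exact permutation p = 0.20). Of 9 leukocyte markers 7 were higher, with a sum of 469 to 797 in control and of 1232 to 2833 in Ptf1a cKO. Of 10 endothelial markers 1 was higher and 0 lower, with sums of 1115 to 1350.1 and of 1149.5 to 1418. Col4a1 to the endothelial marker Pecam1 was 2.27, 2.13 and 2.85 in control and 2.83, 6.95 and 3.03 in Ptf1a cKO. Of 5 markers of smooth muscle cells and pericytes and 3 of mesothelium, 1 each was higher, and the mesothelial sum, 89.0 to 121 in control, was highest in Ptf1a cKO replicate 2 at 257. Of 7 ductal markers 4 were higher, and of 5 adipocyte markers 1. The endothelial, smooth muscle and pericyte, and adipocyte counts lay near the share of all genes. Schwann cell markers were not analysed here. The part of these cells in the matrix changes was not tested.

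Matrix genes outside the naming rule were counted from lists, to be read beside 17.1% of all genes higher and 16.8% lower. Of 4 genes for trimming procollagen, 3 were higher: Bmp1, Pcolce and Adamts2. Pcolce, which speeds removal of the carboxyl propeptide, was at 91.5, 76.0 and 124 in control and at 187, 332 and 241 in Ptf1a cKO (log2 fold change 1.34, adjusted p = 0.00246). Adamts2, which removes the amino propeptide, changed by 1.06 (adjusted p = 0.00739). Of 8 other small leucine-rich proteoglycans 3 were higher, with Lum at 122.6, 114 and 105 in control and 292, 357 and 329.6 in Ptf1a cKO (1.49, adjusted p = 9.09e-05) and Dcn at a change of 0.74 (adjusted p = 0.00276). Of 9 further basement membrane proteins 5 were higher and 2 lower, with Smoc2 at 0.68 (adjusted p = 0.00976) and Ntn4 at 0.56 (adjusted p = 0.0163). The 2 lower genes were Smoc1 (-0.55, adjusted p = 0.0182) and Agrn (-0.40, adjusted p = 0.0287). In the basement membrane set of the rule, 1 of 17 genes was higher.

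Of 13 genes for folding and exporting procollagen, 1 was higher, Leprel2 (0.69, adjusted p = 0.0223), and 1 lower. Both shares lay under those of all genes, 17.1% higher and 16.8% lower. The lower gene was P4hb, the protein disulfide isomerase that is also the shared subunit of prolyl 4-hydroxylase, at 16732.5, 16689.2 and 15967.6 in control and at 6741, 7902 and 5270.0 in Ptf1a cKO (log2 fold change -1.33, adjusted p = 0.00101). Its partner subunits P4ha1 and P4ha2 did not follow it. Of 10 receptors for collagen and laminin, 3 were higher (30.0%) and 2 lower, where 17.1% of all genes were higher and 16.8% lower. Dag1, the laminin receptor dystroglycan, was at 1184, 1248 and 1329 in control and at 631.5, 849 and 687 in Ptf1a cKO (-0.80, adjusted p = 0.00236), and Ddr1, a collagen receptor of epithelia, was at 329, 319 and 313 in control and at 437, 536 and 479 in Ptf1a cKO (0.59, adjusted p = 0.00461).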

How the data were processed

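Per the labels and the paper's methods, single-end reads of 6 libraries were aligned with TopHat2. The submitters' processing notes name TopHat2 2.0.4, Bowtie 0.12.7.0, SAMtools 0.1.18.0, HTSeq 0.6.0 and mm9, and the study used edgeR with TMM, per its methods. The authors deposited 1 signal per gene and library, a normalized read count that is not a whole number, so models of counts were not run. Depth per library cannot be read from these values, and precision rests on 3 mice per group. The 3 entries for reads not assigned to 1 gene (no feature, ambiguous, or not uniquely aligned) were left out. They made up 75.7% to 82.6% of the summed values of these entries and the listed genes in a library. The symbols of 17 genes read as dates and were kept as such.

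Values were divided by 13.6, a single factor that brings the mean total to that of a CPM scale, and log2(value + 0.25) was compared with limma 3.58.1 (R 4.3.3; lmFit, eBayes with trend, two-sided, Benjamini-Hochberg). The filter on low values (mean of 0.25 or more) took out 0 genes. Single ratios were compared by exact permutation (scipy 1.17.1). The fit was tested on simulated data. Since the table gives no positions, gene models (GRCm38) were matched by symbol for all 56 members and promoter windows for 42. Exon overlaps are those of GENCODE, and whether the counting used strand is not given in the sources used here. The labels do not link same-numbered mice, and p-values measure the spread between mice. Genes with all values given were the called ones (up to 6 per class), the 2 most abundant and the largest rise and fall of each class. From lists outside the rule, the 2 genes with the smallest adjusted p were named, and further genes were chosen after their values were seen. The members, classes and lists were chosen with earlier results of these data known. Alternatives were other pseudocounts (0.05 and 1), filters, scalings, limma without trend or robust, sex or replicate number as a term, a threshold of 0.01 and each library left out.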

Additional observations from a re-analysis of the deposited data

How the results depend on the processing

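The direction of the interstitial and basement membrane medians held under every setting tried. Equal totals in all libraries put the median gene at 1.48, and then the medians were 2.46 and 1.87, the called genes 9716, the called members 55, all higher, with 16 in the basement membrane, 12 in the elastic fibre class and 7 among the assembly genes, and the changes of Col4a3bp, Col7a1, Lama3 and Mfap1a became 1.31, 0.89, 0.73 and 1.33, still under the median gene. Without digestive enzymes in the total (median gene -0.13), 2 members were lower, 1 of them interstitial (Col7a1), 0 assembly genes were higher, and Lama5, Ltbp3, P4ha1, P4ha2 and Plod1 stood at -0.0664, -0.0116, -0.0863, -0.0344 and -0.0878. A filter at a mean of 10 on the CPM-like scale left 2058 called genes, 13 interstitial, 3 basement membrane, 2 elastic fibre and 1 assembly gene higher, in part because fewer genes were tested. Basement membrane calls were 5 with the same 75th percentile and 4 with sex as a covariate. Without a trend 1 basement membrane gene was lower, 1 member in all, and 1 assembly gene was higher. At an adjusted p under 0.01, 1794 genes, 12 members (12 higher), 10 interstitial, 3 elastic fibre and 0 assembly genes were called. Where a value moved or a call changed, the cause was not tested unless stated.

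Deviations of same-numbered libraries correlated weakly, at 0.04, 0.13 and 0.14, and those of the other pairs at -0.20 to 0.08. Each control correlated best with the Ptf1a cKO library of its number, but Ptf1a cKO replicate 1 correlated best with control replicate 2 (0.08). Whether the replicate numbers pair the mice cannot be told from these values. With the replicate block 6 basement membrane genes were higher and 1 member, the interstitial Col7a1, lower.

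With single libraries left out, 2363 to 3601 genes and 16 to 32 members (16 to 32 higher, 0 to 1 lower) were called, and 13 to 21 interstitial, 4 to 6 elastic fibre, 1 to 9 basement membrane and 0 to 2 assembly genes were higher. Interstitial genes called lower ranged from 0 to 1. The medians ran from 0.81 to 1.21 and from 0.28 to 0.61. The interstitial count fell to 13 without control replicate 1. Genes near 0 changed sign: Mfap1a (-0.13 to 0.049), P4ha1 (-0.091 to 0.28), Serpinh1 (-0.064 to 0.38), P4ha2 (-0.091 to 0.30), Plod1 (-0.0090 to 0.21), Col5a3 (-0.027 to 0.76), Hspg2 (-0.023 to 0.59) and Lama5 (-0.031 to 0.24), the last 3 without Ptf1a cKO replicate 2. No other setting moved a count by over 1.5 times. Alternatives that model counts were not run, because whole reads could not be recovered from the values.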
